A study of Rattus norvegicus with 14 samples.

Results

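Mgst2, Cav1, Arl4a and Fxyd1 are 4 genes with 19 transcription start sites (TSSs) among the 4993 TSSs of 2993 genes in the deposited Tn5Prime table. All rows carrying these gene symbols were taken, namely 1 TSS of Mgst2, 3 of Cav1, 2 of Arl4a and 13 of Fxyd1. The genes were chosen by their RPM values in these same libraries. Mgst2, Cav1 and Arl4a were selected on their higher values in S16 cells without SOX10, and Fxyd1 on its lower values in primary Schwann cells given cAMP. Those comparisons are therefore given as descriptions without a test, and tests are given only for the comparisons that the choice did not use.

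Tn5Prime anchors each sequencing read at the 5′ end of a transcript, so that a cluster of read starts marks a TSS. Values are in RPM, the reads of a TSS scaled to a fixed total of library reads. Of the 14 libraries, 2 were made from sciatic nerve of rats aged 6 to 9 months and 6 from rat primary Schwann cells, which had received vehicle (3 control libraries) or cAMP (3 libraries). The other 6 were made from S16 cells, 2 from the parental line and 4 from ΔSOX10 lines. The cAMP-treated cells received 250 μM CPT-cAMP, a cell-permeable cAMP analog, for 3 days, and both primary cell groups were kept in 5% fetal bovine serum. S16 is an immortalized rat Schwann cell line, grown here in 10% serum. The 2 parental libraries are samples of this 1 unedited line, whereas each ΔSOX10 library comes from a different clonal line (1-1, 1-2, 2-1 and 2-2) carrying CRISPR/Cas9 frameshift alleles in the first coding exon of Sox10. The 4 clonal lines derive from 2 guide RNAs, so that clones can share a guide, and the sources used here do not say whether the first number of a clone's name marks its guide. To make the clones, cells were transfected, selected with puromycin and grown from single sorted cells, whereas the parental line was unmodified. Effects of these steps cannot be told apart from those of losing SOX10. Nerve and S16 libraries were run on one type of sequencer and primary cell libraries on another, so that differences of primary cells from nerve or S16 cells cannot be told apart from those of the instrument. No test was made between nerve, primary cells and S16 cells. By the study's methods, the primary cell libraries came from separate cell populations and the parental libraries from separate RNA samples of the line. The p-values measure the spread between these libraries.

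Library totals ranged from 29895599 to 79940275 reads, and 28.7% to 37.0% of them fell in the table. A value of 3 reads, used as the floor, corresponded to between 0.0375 RPM in the deepest and 0.1003 RPM in the shallowest library. Sox10 itself was at 77.5 to 90.7 RPM in parental cells and at 0 to 0.114 RPM in the ΔSOX10 clones, with at most 4 reads in any clone. Of 9 Schwann cell marker genes, 8 were in the table. They summed to 72500 to 73540 RPM in nerve and 10190 to 10340 RPM in parental cells, but only to 146 to 400.3 RPM in the clones. Of 7 fibroblast genes, 2 were in the table. Col1a1 was at 2254 to 2828 RPM in parental cells and at 2971 to 5302 RPM in the clones, whereas Pdgfra was at 0.674 to 1.29 RPM in parental cells and at 0 to 0.428 RPM in the clones. The part of these changes in the values of the 4 genes was not tested. Of 6 macrophage genes, 1 was in the table. It was Csf1r, at 1.07 to 4.82 RPM in nerve, at 0 in all primary and parental libraries and at 0 to 0.966 RPM in the clones. None of the 7 endothelial, 5 pericyte or 5 adipocyte markers looked for was in the table, so that the contribution of those cells to the nerve values was not tested. In such bulk RNA, fewer cells of a type and less RNA per cell cannot be told apart.

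SOX10 is an HMG-box transcription factor needed throughout the Schwann cell lineage, where it activates myelin genes together with EGR2. In culture, raising cAMP replaces part of the axonal signal and drives primary Schwann cells from an immature state towards expression of myelin genes. The 4 genes have unrelated roles. Mgst2 encodes a membrane-bound microsomal glutathione S-transferase of the MAPEG family, which can conjugate glutathione to lipids such as leukotriene A4. Caveolin-1, the product of Cav1, is a coat protein of caveolae, small invaginations of the plasma membrane. Arl4a encodes an ARF-like small GTPase that recruits cytohesins to the plasma membrane. Fxyd1 encodes phospholemman, a small membrane protein that modulates the sodium pump (Na,K-ATPase).

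RefSeq promoter sequences, on the rat build GRCr8, were matched by symbol for 3 of the 4 genes. The table positions are on rn5, so these sequences were not placed on the measured TSSs. They are shown because Cav1 has 2 RefSeq promoters, the starts of which lie 1434 bases apart, and because Cav1 and Arl4a were higher without SOX10 whereas Fxyd1 was not. Each line gives the 250 bases before the annotated start, 5′ to 3′ on the gene's strand. Capitals mark matches to any of 5 motifs, searched on both strands: the SOX hexamers ACAAAG and ACAATG, the cAMP response element half-site TGACG, the TATA box TATAAA and the GC box GGGCGG.
Cav1 first promoter (GRCr8 chr4:46606288-46606537, plus strand): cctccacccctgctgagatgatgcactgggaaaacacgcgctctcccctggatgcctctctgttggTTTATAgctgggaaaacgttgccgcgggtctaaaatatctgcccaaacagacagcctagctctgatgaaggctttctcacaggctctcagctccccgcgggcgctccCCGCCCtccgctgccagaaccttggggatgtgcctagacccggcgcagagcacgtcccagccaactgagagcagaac
Cav1 second promoter (GRCr8 chr4:46607722-46607971, plus strand): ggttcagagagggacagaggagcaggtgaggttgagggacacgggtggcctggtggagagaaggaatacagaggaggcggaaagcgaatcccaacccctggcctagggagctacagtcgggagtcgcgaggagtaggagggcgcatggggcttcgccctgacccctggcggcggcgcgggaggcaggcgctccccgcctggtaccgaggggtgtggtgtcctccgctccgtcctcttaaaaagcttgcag
Arl4a promoter (GRCr8 chr6:62811298-62811547, minus strand): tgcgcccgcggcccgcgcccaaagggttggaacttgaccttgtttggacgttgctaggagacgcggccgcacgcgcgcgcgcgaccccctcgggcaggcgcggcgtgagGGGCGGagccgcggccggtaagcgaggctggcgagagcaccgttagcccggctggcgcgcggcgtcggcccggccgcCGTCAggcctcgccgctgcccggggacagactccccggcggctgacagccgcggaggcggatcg
Fxyd1 promoter (GRCr8 chr1:95418581-95418830, minus strand): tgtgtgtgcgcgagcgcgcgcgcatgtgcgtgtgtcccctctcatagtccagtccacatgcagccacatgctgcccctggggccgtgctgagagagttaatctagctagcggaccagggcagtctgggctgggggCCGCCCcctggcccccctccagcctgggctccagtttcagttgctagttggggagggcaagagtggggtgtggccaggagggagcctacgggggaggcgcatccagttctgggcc

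Neither SOX hexamer was found in the 4 windows, while ACAAAG occurred in 16.3% and ACAATG in 11.1% of the 33469 RefSeq promoter windows of the same length. The TGACG half-site was found only in the Arl4a window, 64 to 60 bases before the start on the opposite strand, and in 18.2% of all windows. A GC box was present in the first Cav1, the Arl4a and the Fxyd1 window, and in 30.5% of all windows. TATAAA was found in the first Cav1 window, on the opposite strand, and in 12.9% of all windows. GC content was 60% and 65.6% in the Cav1 windows, 77.2% in that of Arl4a and 66.8% in that of Fxyd1, beside a median of 51.2% over all windows. The Arl4a window held 44 CpG dinucleotides, against a median of 5. Absence of a match says only that these letters are not in these bases.

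The table lists with each TSS the SOX10 peak and the H3K4me3 peak (a histone mark of active promoters) of sciatic nerve that selected it. Of the 19 TSSs, 1 overlapped its SOX10 peak, a minor TSS of Cav1, compared with 51.7% of all TSSs in the table. All TSSs of a gene were listed with the same SOX10 peak, so the 19 are not independent and the count is a description. The Mgst2 TSS (rn5 chr2:160180714-160180879, plus strand) lay 721 bp from its SOX10 peak, which is downstream of it. The TSS of Cav1 with the highest nerve level (chr4:45203429-45203507, plus strand) lay 893 bp upstream of its SOX10 peak, and the corresponding TSS of Arl4a (chr6:69538233-69538290, minus strand) lay 510 bp downstream of its peak. The corresponding TSS of Fxyd1 (chr1:90642452-90642474, minus strand) lay 926 bp downstream of its SOX10 peak. These TSSs are called the main TSSs here.

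**Figure D1:**
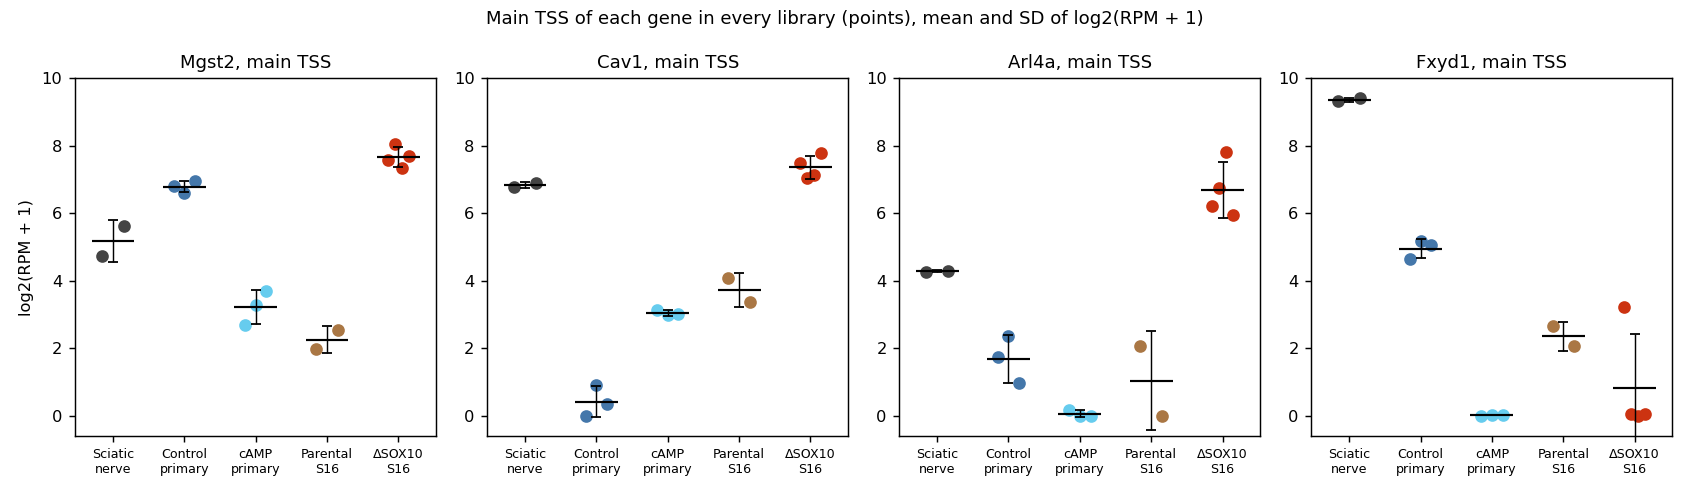
Level of the main TSS of each gene in every library, as log2(RPM + 1). Points are libraries, horizontal lines are group means and bars are SDs. Mgst2, Cav1 and Arl4a were highest in the 4 ΔSOX10 clones, and Fxyd1 was highest in the 2 nerves.

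Mgst2 was abundant in control primary cells and in ΔSOX10 clones and scarce in cAMP-treated and parental S16 cells. Its single TSS had 25.5 and 47.9 RPM in the 2 nerves. The control libraries held 111, 96.99 and 122 RPM, and the cAMP-treated libraries 5.38, 8.77 and 11.95 RPM. Every control library was above every cAMP library, as was the case at 17.4% of all tested TSSs. The parental libraries held 2.92 and 4.77 RPM, and clones 1-1, 1-2, 2-1 and 2-2 held 189, 265, 160 and 206 RPM. All 4 clones exceeded every other library in the series. By the means, ΔSOX10 cells (205 ± 44.2 RPM, SD, n = 4) were 53.3-fold above parental cells (3.85 ± 1.31 RPM, n = 2) and 5.58-fold above nerve (36.7 ± 15.8 RPM, n = 2). In descending order the groups were ΔSOX10, control, nerve, cAMP-treated and parental, and no neighbouring groups in this order overlapped, although the means of cAMP-treated and parental cells differed by only 4.86 RPM, with SDs of 3.29 and 1.31 RPM.

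With cAMP, Mgst2 fell. The mean went from 110 ± 12.7 RPM (SD, n = 3) to 8.70 ± 3.29 RPM (n = 3), which is 12.6-fold lower. The limma difference on log2(RPM + 1) was −3.57 ± 0.26 (SE), with a 95% interval from −4.11 to −3.03 and an adjusted p of 5.7e-10. Of the 3 TSSs tested here, those of Mgst2, Cav1 and Arl4a, 1 (Mgst2) was called lower and 1 (Cav1) higher, beside 11.0% called lower and 12.9% called higher among all 4119 TSSs tested. The Cav1 TSS entered the test only through the cAMP-treated libraries, in which it is high, and lost its call with another test, as given below. The median difference over all tested TSSs was 0.02.

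Cav1, at its main TSS, was likewise high in the clones, but it was also high in nerve and it moved the other way with cAMP. The nerves held 108 and 118 RPM. Control libraries were at 0, 0.856 and 0.272 RPM, that is at 0, 56 and 14 reads. The cAMP-treated libraries held 7.76, 6.95 and 6.98 RPM and lay above all controls, as they did at 19.2% of all tested TSSs. Parental libraries held 15.8 and 9.31 RPM, and the clones 179, 130, 140 and 221 RPM in the order 1-1, 1-2, 2-1, 2-2. Each clone was above both nerves at this TSS. The mean of the clones (167 ± 41.7 RPM, n = 4) was 13.3-fold that of parental cells (12.5 ± 4.58 RPM, n = 2) and 1.48-fold that of nerve (113 ± 6.53 RPM, n = 2). The order of the groups was ΔSOX10, nerve, parental, cAMP-treated and control. No neighbouring groups overlapped, the smallest gap in relation to the spread being that between parental and cAMP-treated cells. Summed over all TSSs of Cav1, however, nerve and clones overlapped, with 175.4 to 193.8 RPM in nerve and 156.5 to 233.1 RPM in the clones.

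With cAMP, the main TSS of Cav1 rose from a mean of 0.376 ± 0.437 RPM to 7.23 ± 0.455 RPM (n = 3 each), which is 19.2-fold. The limma difference was 2.63 ± 0.54 (SE) on log2(RPM + 1), with a 95% interval from 1.50 to 3.76 and an adjusted p of 0.00089. All 3 controls were below the filter on low values (above 1 RPM in at least 2 libraries), so this TSS entered the test only through the cAMP-treated libraries in which it is high, which this p does not take into account. With no filter the adjusted p was 0.00284. On the reads recovered from the same values, edgeR's quasi-likelihood test gave a log2 difference of 4.26 with an adjusted p of 0.0531, so that the call is lost with that test. Over all 16 alternatives the adjusted p ranged from 2.5e-06 to 0.0531. The cAMP-treated cells remained 15.6-fold below nerve.

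**Figure D2:**
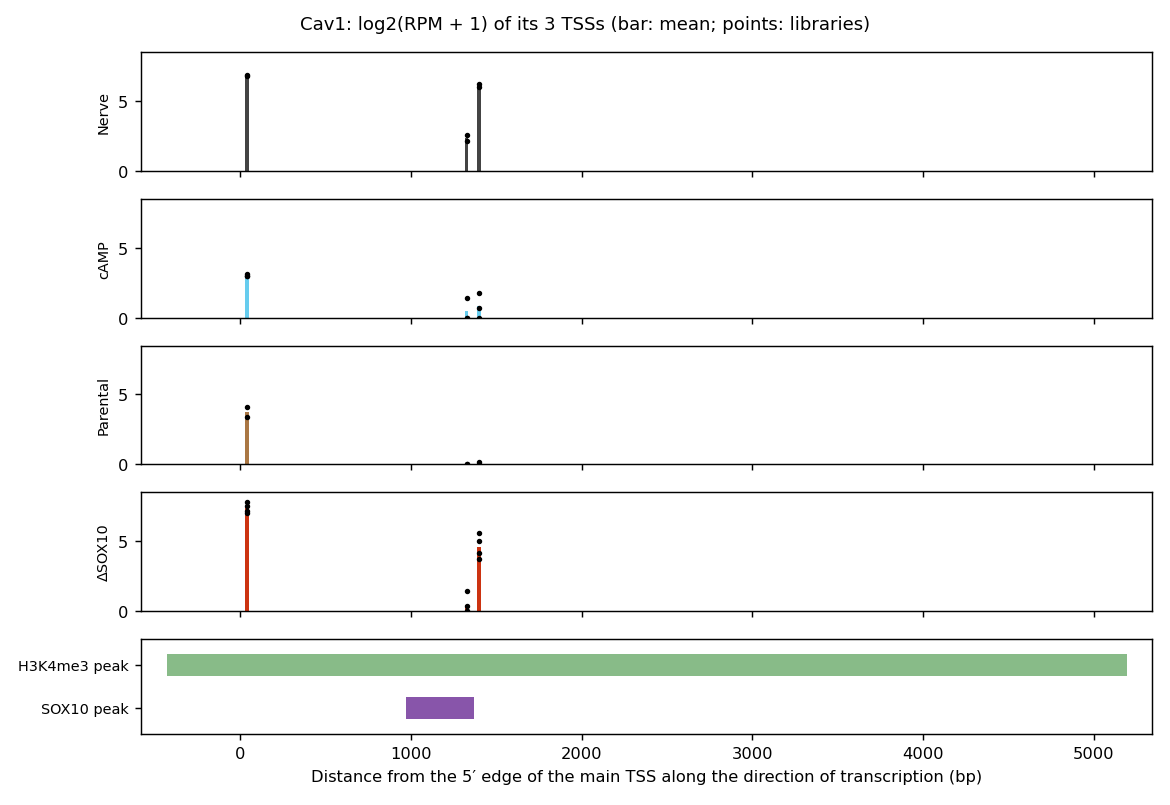
The 3 TSSs of Cav1 along the direction of transcription, with the distance from the 5′ edge of the main TSS in bp on the horizontal axis and log2(RPM + 1) on the vertical axes. Bars are group means, drawn at a fixed width, and points are libraries. The lowest row shows the H3K4me3 and SOX10 peaks of nerve, and control cells are not drawn. The TSS 1395 bp downstream was at 11.8 to 47.8 RPM in the clones and at 0 and 0.104 RPM in parental cells.

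A further Cav1 TSS of 5 bp (chr4:45204824-45204828) starts 1395 bp downstream of the main TSS and 25 bp from the SOX10 peak. It was at or below 2.41 RPM in every cultured library that has SOX10. Its values were 62.1 and 72.8 RPM in nerve, 0 in all 3 controls, and 2.41, 0 and 0.645 RPM in cAMP-treated libraries. Parental libraries held 0 and 0.104 RPM, the latter being 4 reads. Clones 1-1, 1-2, 2-1 and 2-2 held 30.4, 47.8, 16.9 and 11.8 RPM. All clones were above all control, cAMP-treated and parental libraries, and all were below both nerves, the mean of 26.7 ± 16.1 RPM (n = 4) being 2.52-fold below that of nerve (67.5 ± 7.56 RPM, n = 2). This TSS made up 35.4% and 37.6% of the Cav1 reads in the nerves, but 14.4%, 26.9%, 10.8% and 5.07% of them in the clones. The third Cav1 TSS (chr4:45204746-45204764), the one within its SOX10 peak, stayed at 4.88 and 3.36 RPM in nerve and at or below 1.71 RPM in all cultured cells.

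In the comparison of cAMP-treated with control cells, the main TSS of Cav1 was the only one of the gene to pass the filter, so unequal use of its TSSs could not be tested there.

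Arl4a was the most variable of the 3 genes among the clones. Its main TSS had 18.1 and 18.7 RPM in nerve. Control libraries held 2.31, 4.14 and 0.933 RPM. One cAMP-treated library held 0.125 RPM, or 10 reads, and the other two held none, which allows up to 3 reads each. One parental library held 3.19 RPM, or 141 reads, and the other 0. Clones 1-1, 1-2, 2-1 and 2-2 held 73.0, 107, 227 and 60.3 RPM. Each clone was above both nerves and above every other library. The mean of the clones was 117 ± 76.0 RPM (n = 4), 73.3-fold that of parental cells (1.59 ± 2.25 RPM, n = 2) and 6.35-fold that of nerve (18.4 ± 0.373 RPM, n = 2). Below ΔSOX10 cells and nerve came control, parental and cAMP-treated cells, and in this lower part of the order neighbouring groups overlapped. A minor TSS 1075 bp downstream (chr6:69537162-69537215) held 1.04 and 4.09 RPM in nerve, 0 in all control, cAMP-treated and parental libraries, and up to 0.683 RPM in the clones.

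For Arl4a with cAMP, the group ranges did not overlap, but the difference of −1.62 ± 0.61 (SE; 95% interval −2.89 to −0.35) had an adjusted p of 0.059 and was not called. This TSS passed the filter through 2 control libraries only. Groups of this comparison did not overlap, with cAMP lower, at 17.4% of all tested TSSs. The call depends on the processing. DESeq2 on recovered reads gave a log2 difference of −5.87 with an adjusted p of 0.0075, and over 14 alternatives the adjusted p ranged from 0.0075 to 0.15.

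**Figure D3:**
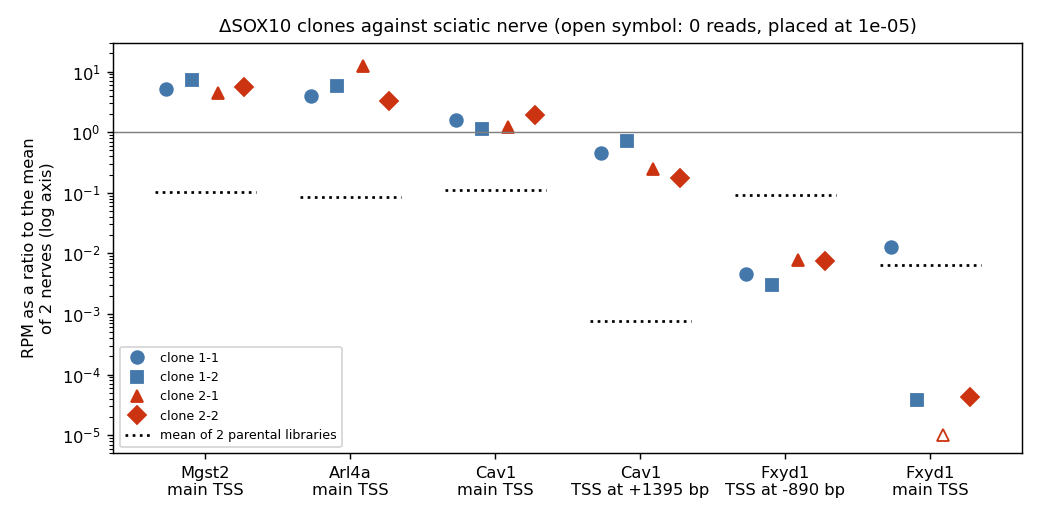
RPM of each ΔSOX10 clone as a ratio to the mean of the 2 nerves, on a log axis, for 6 TSSs. Dotted lines give the mean of the 2 parental libraries on the same scale, and the open symbol stands for 0 reads. All 4 clones exceeded nerve at the main TSSs of Mgst2 (4.36 to 7.22), Arl4a (3.28 to 12.3) and Cav1 (1.15 to 1.96), and none did at the others.

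Clone by clone, the ratios to the nerve mean were 5.15, 7.22, 4.36 and 5.60 for Mgst2, in the order 1-1, 1-2, 2-1, 2-2. For the main TSS of Arl4a they were 3.97, 5.80, 12.3 and 3.28. For the main TSS of Cav1 they were 1.58, 1.15, 1.24 and 1.96. The clone with the highest value thus differed between the genes, being 1-2 for Mgst2, 2-1 for Arl4a and 2-2 for Cav1. All 4 TSSs of these 3 genes that passed the filter were without overlap between clones and parental libraries, which the choice of genes makes uninformative (7.69% of all 3875 tested TSSs were higher without overlap).

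Clones 1-1 and 1-2 were also set against clones 2-1 and 2-2, a contrast by the clone names that the choice of genes did not use. The downstream Cav1 TSS had a mean of 39.1 RPM in the former and 14.3 RPM in the latter, a log2 difference of 1.37 ± 0.46 (SE) with a 95% interval from 0.32 to 2.42 and an adjusted p of 0.76. For Mgst2 the difference was 0.30 (95% interval −0.40 to 1.00), for the main TSS of Cav1 −0.20 (−0.995 to 0.59) and for Arl4a −0.40 (−2.18 to 1.37). With limma's adjusted p, 0 of all tested TSSs were called in this contrast in either direction, and of the 7 TSSs of the 4 genes, 1 (the downstream Cav1 TSS) had an unadjusted p under 0.05 (0.0171). For Fxyd1 the intervals ran from −0.55 to 3.75 at the main TSS, from −1.80 to 2.35 at a 3 bp TSS next to it and from −1.75 to 0.21 at a TSS upstream of it.

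The main TSS of Fxyd1 was highest in nerve. Those of the other 3 genes, which were chosen on their values in the clones, were highest there. Fxyd1 summed over its 13 TSSs to 1306 and 1284 RPM in nerve and to at most 68.8 RPM in any cultured library. Its main TSS held 642 and 678 RPM in nerve, 24.04, 34.8 and 32.2 RPM in controls, and 0, 0.0178 and 0.0147 RPM in cAMP-treated libraries, the last 2 values being 1 read each. Parental libraries held 5.27 and 3.14 RPM. Clone 1-1 held 8.26 RPM, or 324 reads, while clones 1-2 and 2-2 held 1 read each and clone 2-1 none. By the means, control cells (30.4 ± 5.63 RPM, n = 3) were 21.8-fold below nerve (660.3 ± 25.7 RPM, n = 2). Against the floor of 3 reads per library, cAMP-treated cells were at least 674-fold lower than controls. The order of the groups was nerve, control, parental, ΔSOX10 and cAMP-treated, with overlap between parental and ΔSOX10 and between ΔSOX10 and cAMP-treated cells.

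A further strong TSS of Fxyd1 (chr1:90643267-90643364, 98 bp wide) lies 890 bp upstream of the main TSS and 36 bp from the SOX10 peak. It held 595 and 520 RPM in nerve and 28.7, 30.2 and 26.1 RPM in controls, levels close to those of the main TSS. With cAMP the libraries held 11.6, 2.92 and 0 RPM, so this TSS, unlike the main TSS, was clearly detected in 2 of 3 cAMP-treated libraries. Parental libraries held 43.1 and 59.7 RPM, far above the main TSS in the same libraries. Clones 1-1, 1-2, 2-1 and 2-2 held 2.55, 1.70, 4.34 and 4.22 RPM and did not overlap the parental values, as was the case with lower clones at 21.7% of all tested TSSs. The upstream TSS made up 45.5% and 40.5% of the Fxyd1 reads in nerve, 42.0% to 50.4% in controls, and 89.1% and 93.4% in parental cells.

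In the ΔSOX10 clones, the upstream TSS of Fxyd1 was at 3.20 ± 1.29 RPM (n = 4). This is 16.1-fold lower than the 51.4 ± 11.8 RPM of parental cells (n = 2). The limma difference was −3.68 ± 0.41 (SE), with a 95% interval from −4.61 to −2.74 and an adjusted p of 0.00061. At the main TSS the difference was −1.53 ± 0.89 with an interval from −3.56 to 0.50 and an adjusted p of 0.40. Clone 1-1 decides that value. Without it, the difference was −2.32 with an adjusted p of 0.0143, in a range from 0.0143 to 0.93 over the alternatives fitted to this TSS itself. A TSS of 3 bp next to the main one (chr1:90642483-90642485) was at 0 in both parental libraries and at 4.56, 0.0763, 3.09 and 0 RPM in the clones, and its difference of 1.15 (interval −0.52 to 2.83) was not called (adjusted p = 0.45). It passed the filter only through clones 1-1 and 2-1, and leaves the test without either of them. Of the 3 Fxyd1 TSSs tested, 1 was thus called lower, beside 6.55% called lower and 1.65% called higher among all 3875 TSSs tested, the median difference of which was −0.18. The 3 tested TSSs lie in 1 gene and are not independent of each other.

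**Figure D4:**
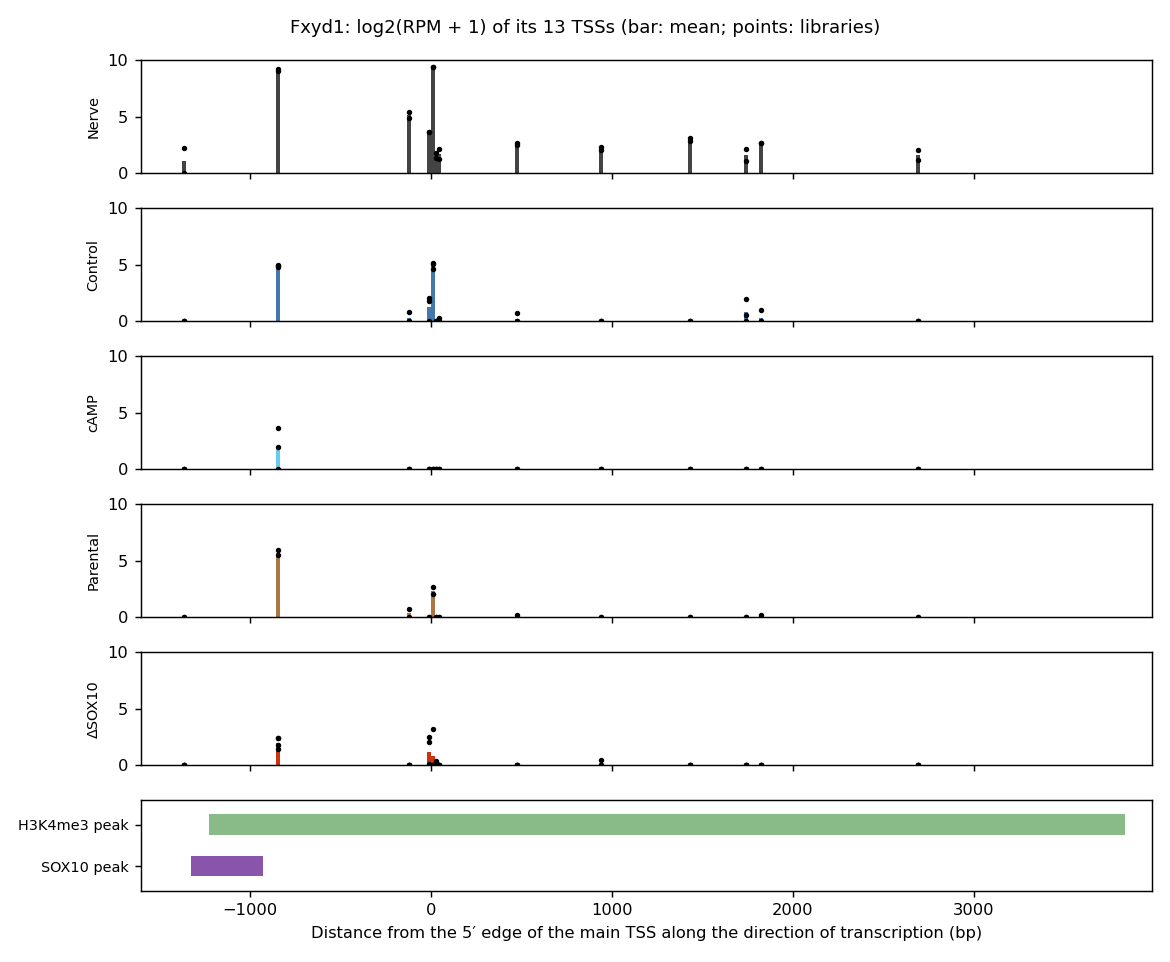
The 13 TSSs of Fxyd1 along the direction of transcription, with the distance from the 5′ edge of the main TSS in bp on the horizontal axis and log2(RPM + 1) on the vertical axes. Bars are group means, drawn at a fixed width, and points are libraries. In nerve 12 TSSs were above 0 in both libraries, whereas in cAMP-treated cells 11 were at 0 in all 3. Only TSSs found in nerve are in the table, so their presence in nerve follows from that choice. Of all 4993 TSSs, 223 and 71 were at 0 in the nerve libraries. In the cAMP-treated libraries 885, 922 and 887 were at 0.

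Whether the TSSs of Fxyd1 differed unequally between ΔSOX10 and parental cells was tested with limma's diffSplice. The test compares each TSS with the others that passed the filter, and so includes the 3 bp TSS that passed only through clones in which it is present. No difference of a single TSS is therefore read from it. The Simes adjusted p of the gene was 0.0562 and did not pass, while 5.04% of the 417 genes tested did. It was 0.0414 without clone 2-2 and between 0.0853 and 0.46 without any other single library, being 0.18 and 0.29 without clone 1-1 or 2-1, when the 3 bp TSS is not tested. It was 0.13 with a pseudocount of 0.1 RPM, 0.00022 with one of 5 RPM and 3.0e-05 without the filter. The gene-level call thus depends on the processing. In the clones the share of the upstream TSS in the Fxyd1 reads was 16.1%, 94.4%, 58.5% and 91.9%, from 619, 71, 272 and 161 reads for the gene, so that these shares rest on few reads.

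The other Fxyd1 TSSs were detected mostly in nerve, where the gene as a whole was highest. Its sum had a mean of 1295 RPM in nerve, 62.6 RPM in controls and 4.86 RPM with cAMP. A TSS with a small share of the gene can fall under the floor at the lower sums. Whether these shares differ between nerve and culture was not tested. A TSS of 2 bp located 119 bp upstream of the main one held 28.7 and 40.3 RPM in nerve and at most 0.795 RPM in any cultured library. The remaining 9 ranged from 0 to 7.84 RPM in nerve and reached at most 2.98 RPM in culture, where 95 of their 108 values were 0.

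The genes that act beside these 4 were taken from lists of related genes, using for each gene the TSS highest in nerve. Among genes of caveolae, the list of Cav1, 6 were in the table. With cAMP, 1 of the 5 other than Cav1 rose and 3 fell, with a median of −0.72, beside 13.5% of main TSSs called higher, 13.9% called lower and a median of −0.03 over all genes. Cavin1 and Cavin3, which encode caveolar coat components, fell (−1.08 ± 0.32, adjusted p = 0.0155, and −0.72 ± 0.14, adjusted p = 0.00039), as did Ehd2, an ATPase of the caveolar neck (−0.83 ± 0.27, adjusted p = 0.0317). Ehd4, an endocytic ATPase of the same family, rose (0.85 ± 0.15, adjusted p = 0.00019). In ΔSOX10 cells 1 of the 5 rose and 1 fell, with a median of 0.05, beside 1.99% called higher, 5.50% called lower and a median of −0.17 over all genes. Ehd2 rose (1.06 ± 0.20, adjusted p = 0.0104) from 71.1 and 82.5 RPM in parental libraries to between 137 and 190.0 RPM in the clones. Ehd4 fell (−1.70 ± 0.31, adjusted p = 0.0090). Cavin1 was at 41.4 RPM in parental cells and 50.3 RPM in clones, and Cavin3 at 232 and 265 RPM, and neither was called.

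**Figure D5:**
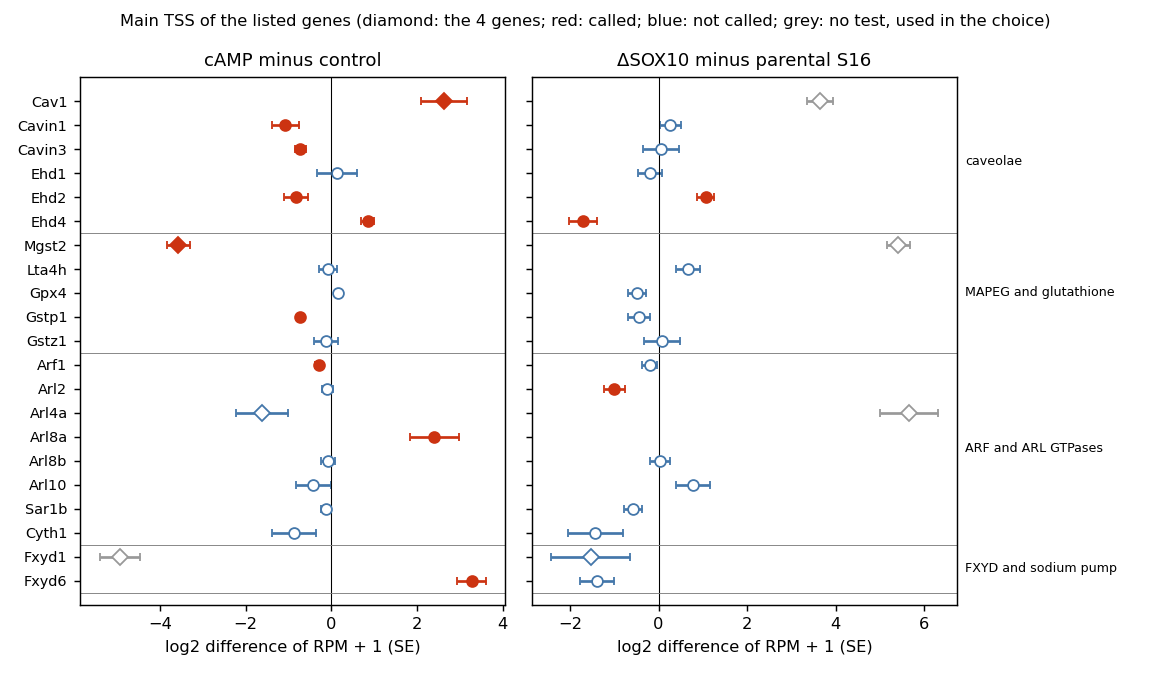
Difference in log2(RPM + 1) with its SE for the main TSS of the listed genes, with cAMP on the left and in ΔSOX10 cells on the right. Diamonds are the 4 genes, red marks an adjusted p under 0.05, blue marks TSSs not called, and grey marks differences used in choosing the genes. Among the related genes, called differences ranged from −1.08 to 3.27 with cAMP and from −1.70 to 1.06 without SOX10.

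Of the list of MAPEG and glutathione genes, 5 were in the table, including Mgst2. With cAMP, 1 of the other 4 was called, lower, beside 13.5% of main TSSs called higher and 13.9% called lower over all genes. It was Gstp1, a soluble glutathione S-transferase (−0.73 ± 0.06, adjusted p = 7.5e-09), which fell from a mean of 1390 to 839 RPM. In ΔSOX10 cells none of the other 4 was called, with adjusted p from 0.20 to 0.93, beside 1.99% called higher and 5.50% called lower. Lta4h, the leukotriene A4 hydrolase, which shares a substrate with Mgst2, was at 52.6 RPM in parental cells and 85.9 RPM in clones (adjusted p = 0.22).

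Of the ARF and ARL small GTPases and their exchange factors, 9 were in the table. With cAMP 7 other than Arl4a were tested, of which 1 was called higher and 1 lower, beside shares of 13.5% and 13.9% over all genes. Arl8a, a lysosomal ARF-like GTPase, was at 0 in all 3 controls and at 5.45, 2.96 and 4.80 RPM with cAMP. It passed the filter only through the cAMP-treated libraries, which its adjusted p of 0.0032 does not take into account. Arf1, which acts in coat assembly at the Golgi apparatus, fell by 0.29 on the log2 scale (adjusted p = 0.0327). In ΔSOX10 cells 6 others were tested, of which none rose and 1 fell, beside 1.99% and 5.50% over all genes. It was Arl2, a regulator of tubulin folding (−0.999 ± 0.23, adjusted p = 0.0325). Cyth1, which encodes a cytohesin, was called in neither comparison.

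Of the FXYD and sodium pump genes, 4 were in the table, and Fxyd6, encoding another FXYD regulator of the sodium pump, was the one tested besides Fxyd1. It was at 402 and 401 RPM in nerve, again far above all cultured cells. With cAMP it rose from 2.85, 4.89 and 3.46 RPM to 44.7, 44.8 and 42.6 RPM, a difference of 3.27 ± 0.33 with an adjusted p of 1.2e-07. This is opposite in direction to the values of Fxyd1 in the same libraries. In S16 cells Fxyd6 was at 1.47 and 2.51 RPM in parental libraries and at or below 0.535 RPM in the clones (−1.39 ± 0.39, adjusted p = 0.064). There Fxyd6 passed the filter only through the parental libraries, in which it is high, which this p does not take into account. Fxyd2 held 18.7 and 23.5 RPM in nerve and was at 0 in all cultured libraries but 1.

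The TSSs with the most similar pattern over the 14 libraries were found by Pearson correlation of log2(RPM + 1). These libraries form 5 groups, and the correlations are descriptions of group differences. For Mgst2 the nearest were Cdc42ep3 (r = 0.89), Zc2hc1a (0.85) and Peak1 (0.79). Cdc42ep3, which encodes an effector of the GTPase CDC42, had means of 67.9 RPM in control, 13.3 RPM in cAMP-treated, 18.8 RPM in parental and 80.4 RPM in ΔSOX10 cells. For the main TSS of Cav1 the nearest were Otulinl (0.94), Nedd9 (0.93), a scaffold protein of focal adhesions, and Myl6 (0.87), a myosin light chain. Nedd9 was at 0.211 RPM in control, 4.82 RPM in cAMP-treated, 3.91 RPM in parental and 12.6 RPM in ΔSOX10 cells. For Arl4a they were Slfn2 (0.89), Ddit3 (0.88), a transcription factor of the endoplasmic reticulum stress response, and Sh2d4a (0.88). Slfn2 was at 0.0113 RPM in parental cells and 14.2 RPM in the clones, beside 14.9 RPM in nerve. For the main TSS of Fxyd1 they were Car14 (0.94), a membrane-bound carbonic anhydrase, Ddah2 (0.92) and Malat1 (0.91). Car14 was at 11.0 RPM in nerve, 2.73 RPM in controls and 0.00594 RPM with cAMP, and at 0 in all S16 libraries.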

How the data were processed

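Values came from the deposited table of 14 Tn5Prime libraries. The authors mapped reads with STAR 2.5.2a to the rat genome (rn5), handled them with SAMtools 1.9 and clustered read starts into TSSs. The TSSs kept were those found in sciatic nerve and near nerve ChIP-Seq peaks of both H3K4me3 and SOX10. They counted reads per TSS and deposited RPM per library. The table also holds 4 columns of log2 fold changes and adjusted p-values that the authors deposited for their own comparisons, which were not used. Whole reads and library totals were recovered from the steps of the RPM values. In both parental libraries and clones 1-1 and 1-2 some values are rounded to 3 digits, and their reads are approximate. Reads carry no molecular identifiers in the sources used here, so floors cover counting error only.

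Each comparison tested the TSSs exceeding 1 RPM in 2 or more of its libraries, on log2(RPM + 1) with limma 3.58.1 (lmFit, eBayes with trend) in R 4.3.3, without covariates. Fold changes on this scale understate those of low TSSs. Benjamini-Hochberg adjustment covered every tested TSS, with a threshold of 0.05, and TSS use was tested with diffSplice. Alternatives ran the recovered reads through edgeR 4.0.16 and DESeq2 1.42.0, or used other scalings, filters and pseudocounts, gene sums, all libraries in one model and libraries left out in turn. Functions were tested on simulated data. Named genes were the 4 genes, the 3 TSSs most correlated with each main TSS, TSSs within 5 kb and called genes of the lists (at most 4 per list and comparison), besides genes named as not called, which were chosen after their values were seen. The members and lists were chosen with earlier results of these data known. Promoter sequences are from RefSeq, and none was given under the symbol Mgst2.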

Additional observations from a re-analysis of the deposited data

How the results depend on the processing

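The fall of Mgst2 with cAMP kept its call under all 17 alternatives (−3.81 to −3.09), and that of the upstream Fxyd1 TSS without SOX10 under all 15 (−4.04 to −2.78). Cav1 with cAMP was not called by edgeR (4.26). Arl4a with cAMP was called by DESeq2 (−5.87), without the filter (−1.62, adjusted p = 0.0286), with a pseudocount of 0.1 RPM (−4.07), with all 14 libraries in one model (−1.62, adjusted p = 0.0453) and without control replicate 3 (adjusted p = 0.0486), over a range of −1.99 to −1.59 as libraries were left out. The cause was not tested. The main Fxyd1 TSS without SOX10 was called without clone 1-1, the range over libraries left out being −2.32 to −1.23. The sum over all Fxyd1 TSSs, of which the upstream TSS makes up 89.1% and 93.4% in parental cells, was called (−3.05). The 3 bp Fxyd1 TSS was called by DESeq2 (8.86). For TSS use in Fxyd1, the change of the upstream TSS against that of the others (−3.49, adjusted p = 0.0516) was called with a pseudocount of 5 RPM (−2.73), without the filter (−3.58) and without clone 2-2 (−3.94 to −1.29 over libraries left out). That of the 3 bp TSS (3.75, adjusted p = 0.0352), which passed the filter only through clones 1-1 and 2-1, was not called with a pseudocount of 0.1 RPM (6.67), or without either parental library or clone 1-2 (3.72 to 4.07). That of the main TSS (−0.27), never called, changed sign with a pseudocount of 5 RPM (0.67) and as libraries were left out (−0.68 to 2.56). In the contrast between pairs of clones the uncalled differences of the main Cav1 TSS (−0.54 to 0.13), Arl4a (−1.35 to 0.54) and the 3 bp Fxyd1 TSS (−0.74 to 1.46) changed sign as clones were left out. For TSS use with cAMP, 1 TSS per gene passed the filter, and pseudocounts, libraries left out and the replicate block gave no value. Without the filter the downstream Cav1 TSS was at 0 in all controls, and no value is given.

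TMM scaling moved the median S16 difference over all TSSs from −0.18 to −0.05, and the upstream Fxyd1 TSS to −3.55. In S16 cells DESeq2 called 164 TSSs higher and 235 lower and edgeR 82 and 172, against 64 and 254 by limma. Leaving out a parental library, so that the remaining one is assumed to vary like the clones, gave 36 and 71 or 28 and 74. Between pairs of clones 1 TSS was called lower without clone 2-1 and 0 otherwise. With the replicate block in primary cells, Mgst2 was at −3.57, Cav1 at 2.63 and Arl4a at −1.62, no call changed, and 553 TSSs were higher and 467 lower, against 530 and 452. Deviations of same-numbered libraries correlated at 0.029, 0.0075 and 0.038, and not every library correlated best with its own number, so the numbers were not taken as pairs. No paired analysis was possible for the S16 cells because parental and clone numbers are not shared. Depth limits the values of Arl4a and of the main Fxyd1 TSS in cAMP-treated cells, and those of the latter in 3 clones. These values rest on at most 10 reads.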

Other observations

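Upstream of Fxyd1, on the opposite strand, lie 12 TSSs of Lgi4, which encodes a secreted protein of Schwann cells needed for myelination. They are the only TSSs of other genes in the table within 5 kb of any TSS of the 4 genes, at 2857 to 4604 bp from the nearest Fxyd1 TSS. Of the 12, 5 passed the filter in S16 cells and all 5 were called lower without SOX10, beside 6.55% called lower and 1.65% called higher among all tested TSSs. They passed the filter through the 2 parental libraries, in which they are high. They also lie in 1 gene and are not independent of each other, so the count is a description. The strongest in nerve (rn5 chr1:90646928-90646942) had means of 32.4 RPM in nerve, 14.9 RPM in parental cells and 0.00636 RPM in the clones (limma difference −3.98 ± 0.36). With cAMP, 6 passed the filter, of which 1 rose, 1 fell and 4 were not called, beside 12.9% called higher and 11.0% called lower among all tested TSSs. The TSS that fell was the same strongest one (9.31 to 2.90 RPM, adjusted p = 0.0283), and the one that rose (chr1:90646993-90647020) went from 0.913 to 7.82 RPM (adjusted p = 0.0034). These TSSs of Lgi4, with an untested one between them, had calls in opposite directions with cAMP, while the other 4 tested were not called. The one that rose had a control mean under the 1 RPM of the filter, which its adjusted p does not take into account. These calls rest on the main setting only.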
